A study of Mus musculus with 16 samples.

Results

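The nuclear genes for the machinery of oxidative phosphorylation were followed in perfused mouse liver, in RNA of the whole extract and in RNA bound to polysomes. A gene was taken where a probe set carried exactly 1 symbol in the platform annotation that starts with Nduf, Uqcr, Atp5, Cox4, Cox5, Cox6, Cox7 or Cox8, or is Sdha, Sdhb, Sdhc, Sdhd, Cyc1 or Cycs, and each gene was represented by its probe set with the highest mean over all 16 arrays. The rule found 184 probe sets of 92 genes, among 18194 genes on the array that have a probe set with 1 symbol. By textbook roles they divide into 34 subunits of complex I, 4 of complex II, 9 of complex III, 10 of complex IV, 17 of complex V, cytochrome c, 8 isoforms of complex IV known from other tissues and 9 genes counted as assembly factors, which are the Ndufaf factors of complex I and Cox7a2l, known from the joining of complexes III and IV.

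The arrays hold 8 groups of 2. Livers were knockout or wild-type for Perk (gene symbol Eif2ak3, a kinase of the endoplasmic reticulum that slows translation by phosphorylating eIF2 alpha), were perfused with or without tBuHQ, and gave polysome RNA or unfractionated RNA. The knockout mice carried the deletion through a Cre driven by the albumin promoter, which acts in hepatocytes, so that other liver cells keep the gene. The wild-type mice were their littermates. All animals were 3 to 6 months old, all livers were perfused with buffer containing 0.1 mM CaCl2, and each array held pooled RNA of 2 livers. tBuHQ is a di-tert-butylhydroquinone, a blocker of calcium uptake into the endoplasmic reticulum that was used to set off stress there, and livers without it are called untreated below. Polysome RNA came from sucrose gradients of 20% to 47%, and unfractionated RNA from the same kind of detergent extract without a gradient.

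Oxidative phosphorylation makes most of the ATP of a hepatocyte. Complexes I (NADH dehydrogenase) and II (succinate dehydrogenase) pass electrons to ubiquinone, complex III (cytochrome bc1) passes them on to cytochrome c, and complex IV (cytochrome c oxidase) reduces oxygen, while complex V (ATP synthase) uses the proton gradient that complexes I, III and IV build. A few core subunits are made inside the mitochondrion, but the remainder, including every gene described here, is transcribed in the nucleus, translated on cytosolic ribosomes and imported.

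The values are scanner signals that were scaled so that each array has the same trimmed mean, so a difference is relative to the average probe set of that array, and the precision is limited by 2 arrays a group. Signals of Eif2ak3 were 26.3 to 49.2 on the knockout arrays and 46.1 to 216 on the wild-type arrays, lower by 1.31 on the log2 scale over the 4 conditions (adjusted p = 0.0106, limma), without its probes having been placed relative to the deleted exons. Each of the 16 columns of a second deposited table, of standardised values, matched by value an array whose title names the other treatment; the array titles are used here. In 4 columns, all of polysome RNA, the matched array also had the other replicate number. Under that table's headings every tBuHQ difference below would turn its sign. Each genotype or fraction difference at a given treatment would belong to the other treatment, and those over the mean of 4 conditions would stay as they are. On the second polysome array of tBuHQ wild-type liver the Gapdh probe sets at the 3′ and 5′ ends of the transcript gave a ratio of 5.60, against 0.735 to 0.859 on the other 15 arrays. The same ratio of control probe sets for a bacterial thr gene was 13.5 there, against 1.45 to 2.03 on the other 15. Both unfractionated arrays of untreated wild-type liver and the first unfractionated array of tBuHQ knockout liver stood apart from the other 5 unfractionated arrays, with a 75th percentile of signal of 105 to 114 against 83.7 to 88.9. Hepatocyte markers (10 of 10 measured) summed to 72488 to 117232 on all 16 arrays. Exocrine pancreas markers (5 of 6 measured) reached 1783 to 2505 on the first arrays of tBuHQ wild-type and of untreated knockout liver in both fractions and 80.4 to 227 on the other 12.

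Of the 92 genes, 87 passed a filter that kept the genes with a mean signal of at least 16.5 and that left 12154 genes for testing. The list is of highly expressed genes, with a median mean signal of 4305, at percentile 96.8 of the tested genes. The 5 that did not pass were Ndufb4 (complex I), Cox7c (complex IV) and the isoforms Cox4i2, Cox8b and Cox7b2, with mean signals of 4.39 to 11.5. Control probe sets for a bacterial trp gene, which mice lack, read up to 15.1, so the mean signals of these 5 were within that background. This describes the probe sets that the rule kept, without those of several symbols, and does not show that a gene was silent. Among isoforms that passed, mean signals were 69.5 for Cox7a1 and 29.4 for Cox6a2, the forms of heart and skeletal muscle. Cox6b2, the testis form of the subunit that holds the oxidase dimer together, read 823 and 907 on the first unfractionated and the first polysome array of untreated knockout liver, 293 on the second unfractionated array of tBuHQ wild-type liver and at most 46.2 on the other 13. Those first 2 arrays are among the 4 with high pancreas markers, whose part in this was not tested.

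The median of the genes shifted from array to array. After the mean of each gene was subtracted, the median over the 87 genes was highest on the 2 unfractionated arrays of untreated knockout liver (0.35 and 0.21 on the log2 scale), the 2 of tBuHQ wild-type liver (0.28 and 0.12) and the second of tBuHQ knockout liver (0.22), beside 0.24 and 0.13 on the polysome arrays of untreated knockout liver. It was lowest on the first polysome array of tBuHQ wild-type liver (-0.44) and on the second unfractionated array of untreated wild-type liver (-0.40), whose other arrays read -0.12 and -0.11. The 2 unfractionated arrays of tBuHQ knockout liver differed from each other (-0.14 and 0.22), and the pooled SD between arrays of a group was 0.163.

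**Figure D1:**
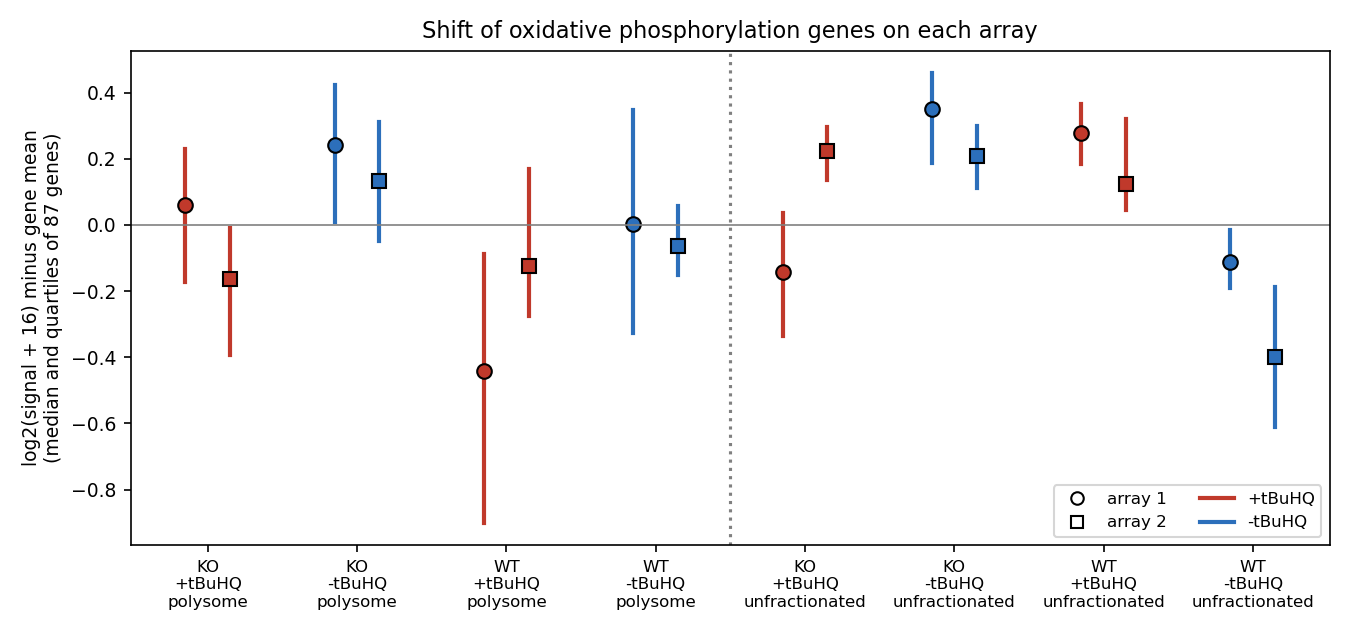
Log2(signal + 16) minus the mean of the gene over all arrays (vertical axis), as the median (point) and quartiles (bar) of the 87 tested genes on each array, by group, with circles for the first and squares for the second array. The 2 unfractionated arrays of untreated wild-type liver sit at -0.11 and -0.40, below the other unfractionated arrays except the first of tBuHQ knockout liver (-0.14).

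The first comparison asks what tBuHQ did to the transcripts of wild-type liver. In unfractionated RNA 85 of the 87 genes were higher with tBuHQ, with a median log2 difference of 0.50, while the median over all 12154 genes was -0.03 and 47.9% of them were higher. The 99th percentile of signal was 6796 and 6562 in tBuHQ wild-type liver, against 5584 and 5095 in untreated wild-type liver. Its part in the shift of these highly expressed genes was not tested. Uqcrb, a small subunit of complex III that binds ubiquinone, read 21189 and 20352 in tBuHQ wild-type liver, against 14961 and 12953 in untreated wild-type liver. The 2 pairs of arrays did not overlap, and Uqcrb rose by 0.58 ± 0.15 (SE; adjusted p = 0.0449, limma with Benjamini-Hochberg adjustment over all genes). It was the 1 gene of the 87 that passed an adjusted p of 0.05 as higher, where 0.411% of all genes were called higher and 3.87% lower. Without adjustment, 28 of the 87 (32.2%) were higher at a p under 0.05, against 5.72% of all genes. The next by p was Cox5b, a subunit of complex IV that binds zinc, with 13262 and 11909 in tBuHQ wild-type liver and 9280 and 8049 in untreated wild-type liver, a difference of 0.54 ± 0.16 with an adjusted p of 0.0724. Atp5g3, 1 of 3 genes for the same mature ring subunit of ATP synthase, differed by 0.54 ± 0.16 with an adjusted p of 0.0755.

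Medians of the complexes in this comparison were 0.48 for complex I, 0.33 for II, 0.48 for III, 0.52 for IV and 0.55 for V, and every one of their 72 tested subunits was higher. Mitochondrial ribosomal proteins (median 0.43, 70 of 73 higher), cytosolic ribosomal proteins (0.44, 43 of 45) and proteasome subunits (0.40, 34 of 38) shifted by similar amounts on the same arrays. Sinusoidal endothelial markers (8 of 8 measured, none at 0) summed to 1170 and 1236 in tBuHQ wild-type liver, against 1994 and 2299 in untreated wild-type liver, and stellate markers (8 of 8 measured) to 3321 and 3640 against 3863 and 4101. Hepatocyte markers summed to 113914 and 117232 in tBuHQ wild-type liver, against 93169 and 96291 in untreated wild-type liver, so the groups did not overlap in any of these 3 sums. The part of these cells in the shift was not tested. In such bulk RNA, fewer cells of a type and less RNA per cell cannot be told apart. When the arrays were brought to one distribution of signals by quantile normalization, Uqcrb was no longer called (difference 0.12, adjusted p = 0.729) and the median over the 87 genes was 0.21. With the replicate number as a fixed term in the model Uqcrb was not called either. The call was also lost without any 1 of the 4 arrays compared (adjusted p = 0.124 to 0.349).

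In knockout liver the unfractionated differences pointed the other way: 8 of the 87 genes were higher with tBuHQ and the median was -0.25, where 50.3% of all genes were higher with a median of 0.0026. None of the 87 passed the adjusted threshold, nor did any of the 12154 genes (0.0%), and 1 was higher and 0 lower at an unadjusted p under 0.05, against 6.66% and 1.65% of all genes. That 1 was Cox8c, an isoform of complex IV known from testis, at 0.87 ± 0.32 with an adjusted p of 0.470. Uqcrb read 16015 and 18722 in tBuHQ knockout liver, against 18632 and 16778 in untreated knockout liver, and the arrays of both groups overlapped. The test of the difference between the genotypes in their response gave a median of -0.72 over the 87 genes, of which 2 were above 0, against a median of 0.04 and 52.1% above 0 over all genes. It called 0 of the 87, where 5.3% of all genes were called, and 37 of the 87 were lower and 0 higher at an unadjusted p under 0.05, against 6.54% and 15.4% of all genes. Ndufaf2, an assembly factor of complex I, had the lowest p in it (-1.42 ± 0.42, adjusted p = 0.0616), before Cox5b (-0.76 ± 0.23, adjusted p = 0.0670). Quantile normalization left that median at -0.42, with the median of all genes at -0.11. The 2 responses share no array. The first tBuHQ knockout array is 1 of the 3 that stood apart, and without it the median in knockout liver was -0.080 with 29 of the 87 above 0, and that of the genotype difference -0.56. Stellate markers summed to 4166 and 2902 in tBuHQ knockout liver, against 1530 and 1647 in untreated knockout liver, and sinusoidal endothelial markers to 2065 and 1246 against 981 and 844. Hepatocyte markers summed to 102601 and 103134 in tBuHQ knockout liver, against 93815 and 88650 in untreated knockout liver. These sums were thus higher with tBuHQ, as in wild-type liver, where the median of the 87 genes was -0.25. The part of these cells in these differences was not tested.

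On polysomes the values with tBuHQ were lower on balance in both genotypes. In wild-type liver 25 of the 87 genes were higher and the median was -0.26. In knockout liver 12 were higher and the median was -0.24, where 54.7% and 49.1% of all genes were higher. Neither comparison called 1 of the 87, where 0.0165% and 0.0% of all genes were called. At an unadjusted p under 0.05, 9 were lower and 1 higher in wild-type liver (4.25% and 5.11% of all genes) and 0 lower and 1 higher in knockout liver (1.3% and 4.49%). Sdha, the flavoprotein of succinate dehydrogenase, was the 1 higher gene in wild-type liver, with 7104 and 6661 in tBuHQ and 4211 and 4941 in untreated polysomes, a difference of 0.59 ± 0.18 (adjusted p = 0.352). Cox8a, a small subunit of complex IV, had the lowest p in wild-type polysomes, at 371 and 1665 with tBuHQ and 3691 and 1810 without it (-1.69 ± 0.51, adjusted p = 0.341). Without the second tBuHQ wild-type polysome array, 12 of the 87 were called lower in wild-type liver, beside 148 of all 12154 genes called in either direction. Without the first, 1 of the 87 was called lower, beside 297 of all genes, and the median was -0.0058. Without the second array Cox8a was called (-2.75, adjusted p = 0.00862) and Sdha was not (0.64, adjusted p = 0.170). In both refits the lone array left is assumed to vary like the other groups.

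Knockout was set against wild-type at the same treatment. In untreated unfractionated RNA 86 of the 87 genes were higher in knockout liver, with a median of 0.51, where 48.2% of all genes were higher with a median of -0.03. The 99th percentile of signal was 6668 and 6139 in untreated knockout liver, against 5584 and 5095 in untreated wild-type liver. Its part in the difference was not tested. Atp5j, coupling factor 6 of the ATP synthase stalk, read 7731 and 6505 in untreated knockout liver, against 4539 and 3197 in untreated wild-type liver. The groups did not overlap and Atp5j rose by 0.89 ± 0.25 (adjusted p = 0.0449, limma), the 1 gene called of the 87, where 0.716% of all genes were called higher and 6.29% lower. Without adjustment, 35 of the 87 (40.2%) were higher at a p under 0.05, against 7.81% of all genes. Ndufb3 (1.04 ± 0.31, adjusted p = 0.0537) and Ndufab1 (0.79 ± 0.23, adjusted p = 0.0541), both of complex I, where Ndufab1 is also the acyl carrier protein of mitochondria, came next. This comparison and that of tBuHQ in wild-type liver share the 2 untreated wild-type arrays, which are 2 of the 3 unfractionated arrays that stood apart. Sinusoidal endothelial markers summed to 844 and 981 in untreated knockout liver, against 1994 and 2299 in untreated wild-type liver, stellate markers to 1530 and 1647 against 4101 and 3863, and macrophage markers (8 of 8 measured) to 2251 and 2506 against 3247 and 3157. Hepatocyte markers summed to 93815 and 88650 in untreated knockout liver, against 93169 and 96291 in untreated wild-type liver, and overlapped. The part of the other 3 lists in the difference was not tested. Atp5j was not called after quantile normalization (0.63, adjusted p = 0.116), nor with the replicate number as a fixed term in the model. The Atp5j call was lost without either untreated wild-type array. With each array left out in turn, the median over the 87 genes ran from 0.39 to 0.67.

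With tBuHQ the unfractionated genotype difference had a median of -0.20, with 12 of the 87 genes (53.2% of all genes) higher in knockout liver and 0 called, where 0.00823% of all genes were called. At an unadjusted p under 0.05, 0 were higher and 2 lower, against 4.67% and 2.3% of all genes, and without the first tBuHQ knockout array the median was -0.014. Polysome RNA had medians of 0.25 without tBuHQ (70 higher, 51.3% of all genes) and 0.22 with it (69 higher, 47.8% of all genes), again with 0 of the 87 called and 0.00823% of all genes called in each. At an unadjusted p under 0.05, 1 was higher and 1 lower in the untreated polysome comparison (2.2% and 4.4% of all genes) and 7 higher and 2 lower in that with tBuHQ (3.95% and 4.89%). Without the second tBuHQ wild-type polysome array the median with tBuHQ was 0.38, and without the first it was 0.016. Ndufs1, the largest subunit of complex I and a carrier of its iron-sulphur clusters, was the lower one in untreated polysomes, with 1297 and 1172 in knockout and 2195 and 1877 in wild-type liver (-0.71 ± 0.20, adjusted p = 0.427). Over the 4 conditions 80 of the 87 (48.4% of all genes) were higher in knockout liver, with a median of 0.21, and 0 were called, where 0.156% of all genes were called. At an unadjusted p under 0.05, 14 were higher and 0 lower, against 4.01% and 8.04% of all genes. Without the second tBuHQ wild-type polysome array the median was 0.23.

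The largest set of called genes came from polysome against unfractionated RNA in tBuHQ wild-type liver. There 5 of the 87 genes were higher on polysomes and the median was -0.47, where 50.3% of all genes were higher with a median of 0.0034. The 99th percentile of signal was 4826 and 4719 on these polysome arrays, against 6796 and 6562 on the unfractionated arrays. In untreated wild-type liver, where the median of the list was 0.20, it was 4539 and 4735 against 5584 and 5095. The part of these percentiles in the differences was not tested. The test called 17 of the 87 (19.5%) as lower on polysomes and 0 as higher, where 4.85% of all genes were called lower and 10.8% higher. They were 5 of 9 subunits of complex IV (Cox4i1, Cox5a, Cox5b, Cox6a1 and Cox7a2), 4 of 17 of complex V (Atp5c1, Atp5d, Atp5g2 and Atp5g3), 5 of 33 of complex I (Ndufa1, Ndufa3, Ndufb5, Ndufb11 and Ndufc2), Uqcrb of complex III, and Ndufaf8 and Cox7a2l of the assembly class. None of the 4 subunits of complex II was called.

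Ring subunit gene Atp5g2, like Atp5g3 a source of the c subunit, read 1608 and 937 on tBuHQ wild-type polysomes, against 3992 and 3245 in tBuHQ wild-type unfractionated RNA. The groups did not overlap, and Atp5g2 was lower by 1.54 ± 0.31 in log2 (-1.54, adjusted p = 0.00441, limma). Its 3 probe sets disagreed, and their mean gave -0.29 with an adjusted p of 0.436. Ndufa1, a small membrane subunit of complex I that is needed for its assembly, read 2332 and 4640 on polysomes and 8069 and 8165 in unfractionated RNA, and fell by 1.30 ± 0.29 (adjusted p = 0.00785). Cox6a1, the liver form of a regulatory subunit of complex IV, read 6449 and 8951 against 13344 and 13268, and fell by 0.81 ± 0.18 (adjusted p = 0.00797). The gamma subunit Atp5c1, the central shaft of ATP synthase, read 6850 and 5500 on polysomes and 11584 and 10122 in unfractionated RNA (-0.82 ± 0.20, adjusted p = 0.0148). Ndufaf8, an assembly factor of complex I, had the widest difference and the widest error of the 17, with 194 and 981 on polysomes and 1660 and 1527 in unfractionated RNA (-1.81 ± 0.57, adjusted p = 0.0430). Uqcrb read 13013 and 14522 against 21189 and 20352 (-0.59 ± 0.15, adjusted p = 0.0156).

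In every one of these 6 genes both polysome arrays lay below both unfractionated arrays. The 6 were taken from the genes called on these same arrays, so this separation adds no support. The tBuHQ wild-type unfractionated arrays are also those of the tBuHQ comparison above. The count of 17 was 30 without the second polysome array, with its high Gapdh ratio, of which 12 were among the 17, and all genes called in either direction were then 1882. It was 7 without the first polysome array (1960 of all genes), 3 without the first (896) and 1 without the second (786) unfractionated array, and 2 after quantile normalization over all arrays (1614). Hepatocyte markers summed to 89204 and 77887 on polysomes of tBuHQ wild-type liver, against 113914 and 117232 in its unfractionated RNA. Their sums were also lower on polysomes in untreated wild-type liver (72488 and 74345 against 93169 and 96291). The median of the list there was 0.20. The same held in untreated knockout (75528 and 82069 against 93815 and 88650) and tBuHQ knockout liver (76156 and 91578 against 102601 and 103134). The medians of the list there were -0.06 and -0.11. The part of these markers in the differences was not tested.

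**Figure D2:**
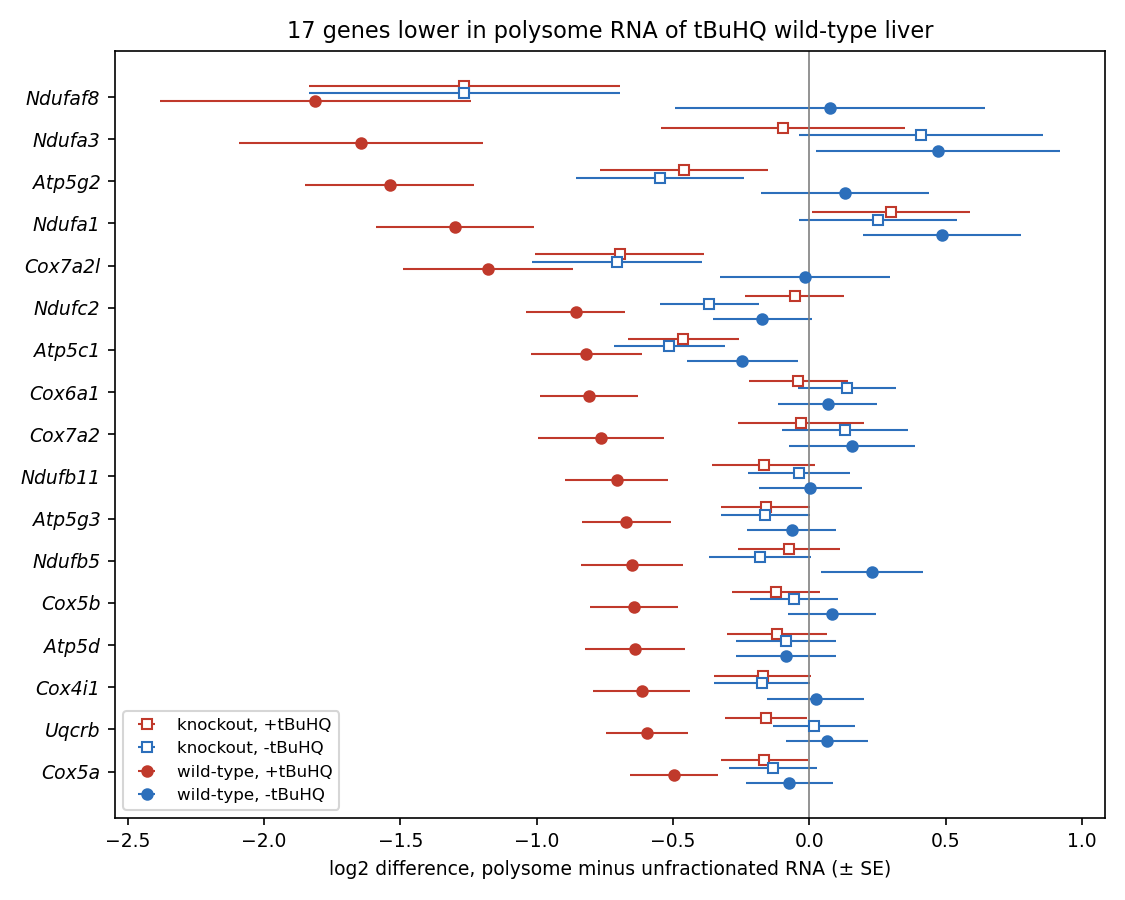
Log2 difference of polysome minus unfractionated RNA (horizontal axis, with SE) for the 17 genes called lower in tBuHQ wild-type liver, in each of the 4 conditions. In tBuHQ wild-type liver (filled red) the points run from -1.81 for Ndufaf8 to -0.50 for Cox5a, and Ndufa1 is at 0.49 in untreated wild-type liver (filled blue).

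Promoters are shown for 5 of the genes called between fractions that carry a searched motif close to the start, because nuclear factors such as NRF1, the ETS factor GABP, YY1 and ERR alpha are known to act on many genes of this kind. RefSeq windows (mouse build GRCm38.p6) of 250 bases before to 50 after the start were at hand for 75 of the 92 genes, as 80 windows. On either strand, GCATGCGC (NRF1) was in 12 of them, against 2.71% of all 32851 windows of the table. CCGGAAG (ETS) was in 19, against 8.86%, AAGATGGCG (YY1) in 7, against 1.40%, and TCAAGGTCA (ERR) in 2, against 0.423%. These matches describe the letters and are no evidence of binding. Each sequence below is the 120 bases before the annotated start, from 5′ to 3′ on the strand of the gene, with motif letters in capitals. Atp5g2 (minus strand, chr15:102671048-102671167) and Ndufaf4 (plus strand, chr4:24897963-24898082) hold overlapping NRF1 motifs on both strands. Atp5g3 (minus strand, chr2:73911327-73911446) holds an ERR motif, and Cox6a1 (minus strand, chr5:115348959-115349078) and Ndufaf8 (plus strand, chr11:120098814-120098933) an ETS motif.
Atp5g2: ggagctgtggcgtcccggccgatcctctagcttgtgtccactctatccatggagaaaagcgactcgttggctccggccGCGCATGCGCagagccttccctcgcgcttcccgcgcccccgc
Ndufaf4: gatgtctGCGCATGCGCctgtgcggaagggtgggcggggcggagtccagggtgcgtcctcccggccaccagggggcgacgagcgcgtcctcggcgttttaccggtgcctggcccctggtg
Atp5g3: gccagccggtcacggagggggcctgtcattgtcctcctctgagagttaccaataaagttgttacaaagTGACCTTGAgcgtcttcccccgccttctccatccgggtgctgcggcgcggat
Cox6a1: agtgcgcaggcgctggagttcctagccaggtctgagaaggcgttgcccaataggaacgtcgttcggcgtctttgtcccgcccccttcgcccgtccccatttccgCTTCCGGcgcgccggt
Ndufaf8: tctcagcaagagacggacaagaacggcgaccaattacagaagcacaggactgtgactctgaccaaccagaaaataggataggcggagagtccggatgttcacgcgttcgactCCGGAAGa

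In untreated knockout liver 37 of the 87 genes (49.8% of all genes) were higher on polysomes and the median was -0.06. The test called 3 (3.45%) as lower and 0 as higher, where 3.53% of all genes were called lower and 5.82% higher, so the share of lower calls was near that of all genes. Ndufs1 read 1297 and 1172 on untreated knockout polysomes, against 2894 and 2441 in untreated knockout unfractionated RNA, and fell by 1.10 ± 0.20 (adjusted p = 0.00471, limma). The assembly factor Ndufaf1, a chaperone for the membrane arm of complex I, read 594 and 524 against 1147 and 1221, and fell by 1.06 ± 0.21 (adjusted p = 0.00751). Sdha read 4245 and 4206 against 7227 and 6138, and fell by 0.65 ± 0.18 (adjusted p = 0.0352). In each of the 3 genes the groups did not overlap, which adds no support, because the genes were called on these same arrays. In tBuHQ wild-type liver, for comparison, Ndufs1 read 2267 and 2543 on polysomes and 2487 and 2246 in unfractionated RNA, and Sdha read 7104 and 6661 on polysomes and 6850 and 6447 in unfractionated RNA, so neither separated the fractions there. None of the 3 calls held without the first unfractionated or the second polysome array of untreated knockout liver. With each array left out in turn, the median over the 87 genes ran from -0.14 to -0.0062. After quantile normalization over all arrays Sdha was not called (adjusted p = 0.347), and the median of the 87 genes was 0.24, of opposite sign.

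The 2 remaining conditions called 0 of the 87. In untreated wild-type liver 61 (48.8% of all genes) were higher on polysomes, with a median of 0.20, where 0.592% of all genes were called. At an unadjusted p under 0.05, 8 were higher and 0 lower, against 3.07% and 8.84% of all genes. In tBuHQ knockout liver 24 (49.9% of all genes) were higher, with a median of -0.11 (0.18 after quantile normalization), where 0.658% of all genes were called, and 1 was higher and 5 lower at an unadjusted p under 0.05, against 7.31% and 6.09%. Sdhd, the small anchor of succinate dehydrogenase, had the lowest p in both, at 0.51 ± 0.17 in untreated wild-type (adjusted p = 0.200) and 0.39 ± 0.17 in tBuHQ knockout liver (adjusted p = 0.345).

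Over the mean of the 4 conditions 26 of the 87 genes (48.0% of all genes) were higher on polysomes and the median was -0.15. The test called 12 (13.8%) as lower and 1 as higher, where 11.9% of all genes were called lower and 14.8% higher. The lower calls among the 87 were thus about as frequent as among all genes, and no difference from them was tested. The lower genes were 6 of complex V (Atp5b, Atp5c1, Atp5g2, Atp5g3, Atp5h and Atp5pb), Ndufc2 and Ndufs1 of complex I, Sdha, and Ndufaf1, Ndufaf8 and Cox7a2l of the assembly class. Atp5c1 had the lowest p (-0.51 ± 0.10, adjusted p = 0.00194), with polysome arrays of 5399 to 7601 (median 6555) and unfractionated arrays of 7058 to 11584 (median 9194). The 1 higher gene was Ndufaf4, an assembly factor of complex I, with 971 to 2415 (median 1588) on polysome and 802 to 1242 (median 1120) on unfractionated arrays (0.50 ± 0.17, adjusted p = 0.0380). No gene of the 87 had all 8 polysome arrays below or above all 8 unfractionated arrays, where 1.44% of all genes lay wholly below and 2.22% wholly above. In all 4 conditions 21 of the 87 were lower and 0 higher, against 18.9% and 19.0% of all genes. Quantile normalization over all arrays turned the median to 0.15 and the calls to 11 higher and 5 lower, so the direction of the list between fractions rests on the scaling. Normalization within each fraction left it at -0.15 with 1 higher and 17 lower. With each array left out in turn, the median ran from -0.18 to -0.091, and in most of these refits some of the 13 calls were lost.

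The test of whether the response to tBuHQ differed between fractions of wild-type liver gave a median of -0.78 (5 of 87 above 0), against 0.09 and 55.1% above 0 over all genes. It called 0 of the 87, where 0.107% of all genes were called, and 39 were lower and 0 higher at an unadjusted p under 0.05, against 5.36% and 12.3%. Ndufa1 had the lowest p (-1.78 ± 0.41, adjusted p = 0.0734), before Atp5g2 (-1.67 ± 0.44, adjusted p = 0.0917). Without the second tBuHQ wild-type polysome array 26 of the 87 were called lower, beside 541 of all genes called in either direction, and without the first 1 was, beside 379. In knockout liver the same test had a median of 0.01, with 46 above 0 (48.7% of all genes) and 0 called (0.0% of all genes), and 1 higher and 1 lower at an unadjusted p under 0.05 (1.42% and 1.55%). The genotype difference in the tBuHQ response on polysomes had a median of -0.04 (0.05 after quantile normalization; 41 above 0, 48.0% of all genes) and 0 called (0.0% of all genes), with 0 higher and 0 lower at an unadjusted p under 0.05 (2.65% and 2.4%). Without the second tBuHQ wild-type polysome array that median was 0.22, and without the first it was -0.20. Over the 4 conditions tBuHQ gave a median of -0.07 with 31 above 0 (49.1% of all genes) and 0 called, where 0.0494% of all genes were called, and 1 higher and 2 lower at an unadjusted p under 0.05 (5.69% and 3.61%). Without the second tBuHQ wild-type polysome array that median was -0.11.

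**Figure D3:**
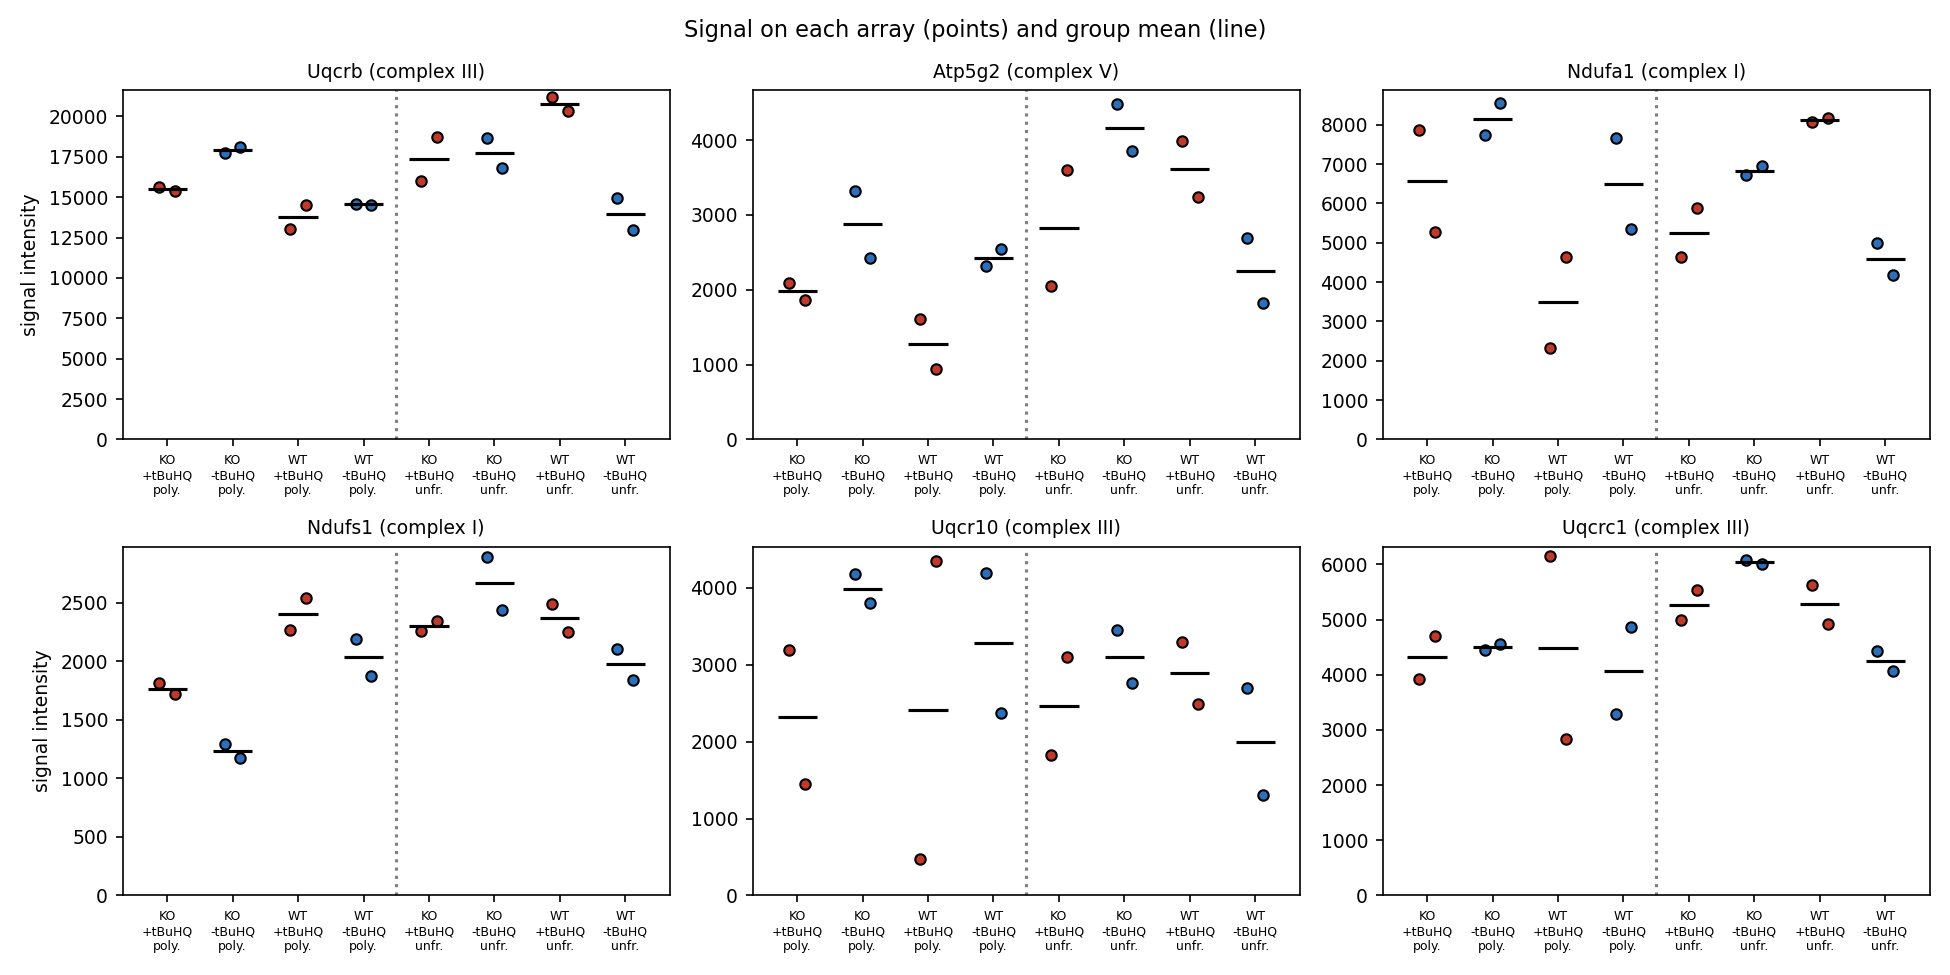
Signal intensity (vertical axis, from 0) of 6 genes on each array (points) with the mean of each group (line), tBuHQ in red and untreated in blue. Uqcrb reads 21189 and 20352 in unfractionated RNA of tBuHQ wild-type liver, Ndufs1 reads 1297 and 1172 on polysomes of untreated knockout liver, and the 2 tBuHQ wild-type polysome arrays lie far apart for Uqcr10.

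Among the complexes the medians lay close together and mostly shared a sign. In polysome against unfractionated RNA of tBuHQ wild-type liver they were -0.47 for complex I, -0.31 for II, -0.40 for III, -0.64 for IV and -0.56 for V, with 31 of 33, 3 of 4, 9 of 9, 9 of 9 and 17 of 17 subunits below 0. In knockout against wild-type untreated unfractionated RNA they were 0.56, 0.39, 0.51, 0.40 and 0.55 in the same order. Complex II was nearest to 0 in 3 of the 4 comparisons of tBuHQ, apart from knockout unfractionated RNA, but it has 4 subunits and no difference between complexes was tested. Assembly factors stood lower than the subunits of complexes I to V in polysome against unfractionated RNA of untreated knockout liver, with a median of -0.51 against -0.05.

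**Figure D4:**
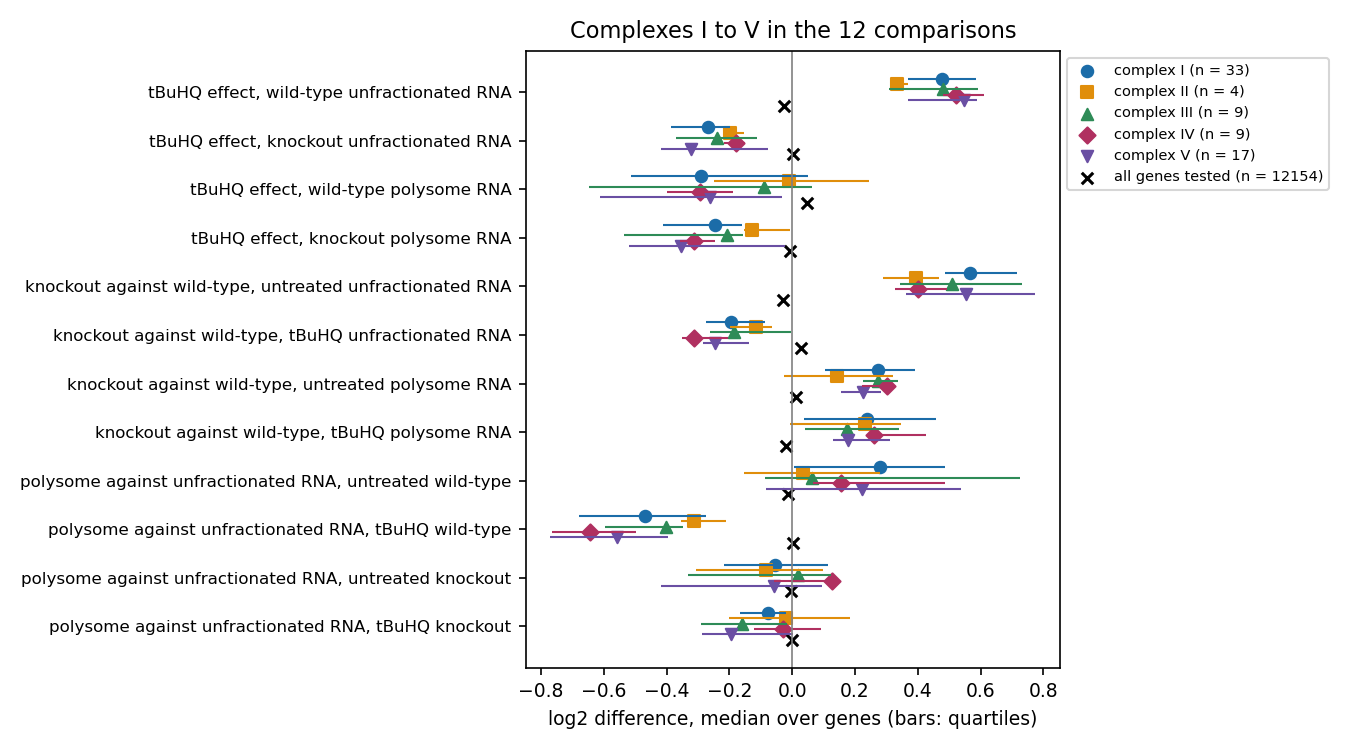
Median log2 difference (horizontal axis; bars are quartiles over genes) of complexes I to V and of all 12154 genes (crosses) in 12 comparisons. All 5 complexes lie between 0.33 and 0.56 in the tBuHQ comparison of wild-type unfractionated RNA and the genotype comparison of untreated unfractionated RNA, and from -0.64 to -0.31 in polysome against unfractionated RNA of tBuHQ wild-type liver.

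Within the tBuHQ wild-type polysome group the 2 arrays differed. The first was the higher for 30 of the 87 genes and the second for 57, and 25 of the 87 genes (28.7%) differed by more than 2-fold, against 14.6% of all genes, while in the other 7 groups 1.15% to 9.20% of the 87 did. The genes in this paragraph were chosen after their values were seen. Uqcr10, a small subunit of complex III, read 473 on the first and 4345 on the second array, Atp5md, a small membrane subunit of ATP synthase, 1072 and 8367, and Ndufc1 of complex I 778 and 4505. Higher on the first array were Uqcrc1, a core protein of complex III, with 6158 and 2829, Ndufv1, which binds NADH and FMN in complex I, with 4701 and 2480, and the alpha subunit Atp5a1, with 10536 and 8980. Ndufs1, a large subunit, read 2267 and 2543. The second array is the one with the Gapdh ratio of 5.60, against 0.803 on the first. The ratio of the bacterial thr control was 13.5 on the second array and 1.66 on the first, and that of beta-actin 1.98 and 1.26. The part of RNA quality, or of another source of these ratios, in these differences was not tested. The median shift of the 87 genes was -0.44 on the first array, the lowest of all 16, and -0.12 on the second. In Uqcr10, Uqcrc1 and Ndufv1 the 2 untreated wild-type polysome arrays differed by 0.82, -0.57 and -0.54 (log2, first minus second). The same genes differed by 1.12, -0.26 and -0.48 in tBuHQ knockout polysomes, and by 0.14, -0.03 and -0.04 in untreated knockout polysomes.

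**Figure D5:**
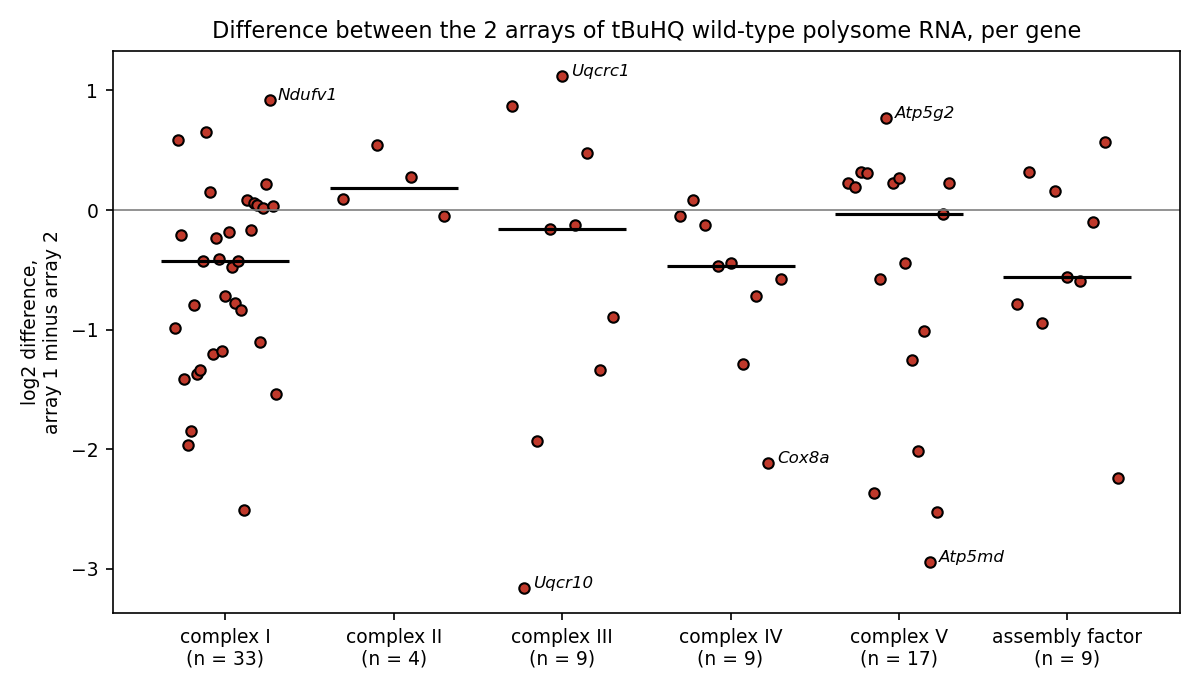
Log2 difference between the first and the second polysome array of tBuHQ wild-type liver (vertical axis) for each gene, by complex, with lines at the medians. The points run from -3.16 (Uqcr10) to 1.12 (Uqcrc1) within complex III alone, and the 4 subunits of complex II lie between -0.05 and 0.54.

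Other genes of mitochondrial energy supply were counted in lists of their own. Of 16 tested genes of the citric acid cycle and pyruvate dehydrogenase, 7 were lower and 2 higher on polysomes over the mean of the 4 conditions (adjusted p under 0.05, limma), where 11.9% of all genes were called lower and 14.8% higher. As for the 87 genes, a direction between fractions is relative to the scaling, and these lists were not counted after quantile normalization. The values of the genes named here were known when they were chosen: Pdhb, the beta subunit of pyruvate dehydrogenase, fell by 0.56 ± 0.13 (adjusted p = 0.00458), and Ogdh, of the oxoglutarate dehydrogenase complex, rose by 0.64 ± 0.13 (adjusted p = 0.00166). Of 13 other electron donors and carriers 4 were lower and 0 higher, among them the phosphate carrier Slc25a3 (-0.50 ± 0.11, adjusted p = 0.00307), which brings in the phosphate that ATP synthase uses. Of 25 assembly factors with other names 2 were lower and 2 higher, Oxa1l, which inserts proteins into the inner membrane, at -0.50 ± 0.11 and Cox10, which makes heme for complex IV, at 0.52 ± 0.13 (adjusted p = 0.00378 and 0.00827). Of 14 nuclear regulators 0 were lower and 3 higher, including Ppargc1b, a coactivator of mitochondrial genes, at 0.68 ± 0.15 (adjusted p = 0.00342) and Gabpa, the DNA-binding part of GABP, at 0.43 ± 0.14 (adjusted p = 0.0301).

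In polysome against unfractionated RNA over the mean of the 4 conditions, calls at an adjusted p under 0.05 (limma) were also counted for other lists. Called lower were 42 of 45 cytosolic ribosomal proteins (median log2 difference -1.03) and 13 of 38 proteasome subunits (-0.30). Of mitochondrial ribosomal proteins 7 of 73 were called lower and 2 higher (-0.04). Beside these, 12 of the 87 oxidative phosphorylation genes (-0.15) and 11.9% of all genes were called lower, and 14.8% of all genes higher. The differences between these lists were not tested.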

How the data were processed

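Affymetrix arrays of mouse liver were analysed. The signal intensity of 45101 probe sets on 16 arrays was taken as deposited by the authors in the series matrix; no label or header names the software, and the arrays' equal mean after trimming 2% at each end (150) shows a scaling to a common mean. A second deposited table of standardised score values was used only to check array names. Symbols came from GEO's platform annotation: 34958 probe sets had 1 symbol, 932 several and 9211 none. All 92 symbols are current in RefSeq.

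From these values log2(signal + 16) was computed, so differences of low genes are understated. The probe set with the highest mean stood for a gene, and genes with a mean signal under the 40th percentile of probe sets with 1 symbol were left out. One model with a mean for each of 8 groups was fitted to all 16 arrays with limma 3.58.1 in R 4.3.3 (trended variance, 8 residual and 6.94 prior degrees of freedom), and p-values were adjusted over 12154 genes within each of 19 contrasts. The code was tested on simulated data. Both arrays of each group are titled as biological replicates. Which pool of livers each held is not stated, so the error behind a p-value may be partly technical. Members, lists and tests were chosen with earlier results of these data known. Followed through the alternatives per contrast were up to 6 called members in each direction by size, or the 3 with the lowest p where none was called. The genes described above were in part others, among them core subunits and isoform pairs, chosen with their values known. Alternatives were pseudocounts 1 and 64, no filter or a signal of at least 80, quantile normalization, the mean of all probe sets, replicate blocks, and leaving out each array.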

Additional observations from a re-analysis of the deposited data

How the results depend on the processing

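When each array was left out in turn, the counts of called genes of the 87 ranged from 0 to 3 for tBuHQ in wild-type unfractionated RNA, 0 to 12 in wild-type polysome RNA and 0 to 1 over the mean of 4 conditions. For knockout against wild-type they ranged from 0 to 8 in untreated unfractionated RNA and 0 to 1 in tBuHQ polysome RNA, and for polysome against unfractionated RNA from 1 to 30 in tBuHQ wild-type, 0 to 6 in untreated knockout liver and 7 to 21 over the mean. The genotype difference in the unfractionated tBuHQ response gave 0 to 6 (6 without either tBuHQ wild-type polysome array, 5 without the second tBuHQ knockout unfractionated array) and the fraction difference in wild-type liver 0 to 26. Medians ranged from -0.43 to -0.0058 for tBuHQ in wild-type polysome RNA and -0.40 to -0.080 in knockout unfractionated RNA, from -0.37 to -0.014 and 0.016 to 0.38 for the genotype in tBuHQ unfractionated and polysome RNA, from -0.67 to -0.30 and -0.28 to 0.062 for the fractions of tBuHQ wild-type and tBuHQ knockout liver, from -0.20 to 0.22 for the genotype difference on polysomes, and from -0.94 to -0.55 and -0.16 to 0.19 for the fraction difference in wild-type and knockout liver. Without the first or the second untreated wild-type unfractionated array, the genes called over all 12154 for tBuHQ in wild-type unfractionated RNA were 1 and 1, against 520 with all arrays. Without a filter the calls were 0 for tBuHQ in wild-type unfractionated RNA, 0 for the untreated unfractionated genotype difference, and 8 and 8 for the fractions of tBuHQ wild-type liver and their mean; with a signal of at least 80 they were 3 for tBuHQ in wild-type unfractionated RNA, 4 for the untreated unfractionated genotype difference and 2 for the genotype difference in response. With the mean of all probe sets they were 0, 0, 5 and 8, the fraction difference in wild-type liver had a median of -0.61, and Cox8c in the tBuHQ unfractionated genotype comparison turned to -0.042. Quantile normalization over all arrays and within each fraction gave 0 and 0 calls for tBuHQ in wild-type unfractionated RNA (medians 0.21 and 0.20), 0 and 0 for the untreated unfractionated genotype difference (0.31 and 0.33, with the median of all genes moved to 0.10), 2 and 10 for the fractions of tBuHQ wild-type liver (-0.10 and -0.36), medians of -0.42 and -0.43 for the genotype difference in response and -0.59 and -0.60 for the fraction difference in wild-type liver; over all arrays the fraction medians were 0.24 in untreated knockout, 0.18 in tBuHQ knockout liver and 0.15 over the mean. Same-numbered arrays of the 2 fractions deviated with correlations over genes of 0.081, 0.11, 0.33 and 0.082 in the 4 conditions. Over all pairs of groups such correlations ran from -0.30 to 0.36. Which pool of livers each array held is not stated. High pancreas markers fell on the same number in both fractions of tBuHQ wild-type and of untreated knockout liver. Cox6b2 did so in untreated knockout but not in tBuHQ wild-type liver. Shared livers are thus possible, while the main fit treats all arrays as independent. With a replicate block as a fixed term 0 of the 87 were called for tBuHQ in wild-type unfractionated RNA (Uqcrb adjusted p = 0.0586, limma) and Atp5j lost its untreated genotype call (adjusted p = 0.0563), and as a random term (correlation 0.11) 1 was called for the fraction difference in wild-type liver; neither block moved another count of calls by over 1.5 times. Beside most of these counts the calls over all genes are not given, so the counts do not show a change particular to the 87 genes. Where a cause of these changes is not the number of genes or arrays, the cause was not tested.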
